A study of Mus musculus with 3 samples.

Results

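The DNA replication machinery was followed as 38 listed genes that code for the proteins which mark replication origins, load and switch on the replicative helicase, prime and copy the DNA, and join the new strands. The genes were chosen by name, as Entrez identifiers mapped to mouse symbols, and a gene counted as a member if it had a row in any of the 3 tables. All 38 had a row in every table, of 17209 genes listed in all. All 38 also had a mean level of at least 1 CPM, counts scaled to library size, and were compared together with all 12955 genes at or above it.

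RNA came from mouse epiblast stem cells (EpiSCs) of strain 129 at passage 1, pluripotent cells that resemble the epiblast after implantation. The line is kept on gelatin in serum with IWR1, a tankyrase inhibitor that dampens Wnt signalling, and Y27 (Y27632), a kinase inhibitor that lowers actomyosin contraction. NT denotes cells from which both inhibitors had been taken away overnight. IWR1 denotes a 12 h treatment with 2 µM IWR1, and Y27 a 12 h treatment with 0.5 µM Y27, doses as labelled. The labels leave unsaid if these 2 cultures had a period off the inhibitors beforehand and if each still saw the other inhibitor. Each group had 1 library, so no difference has a replicate check and no test between groups was possible. IWR1 over NT and Y27 over NT share the NT library, and anything particular to that library enters both.

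Replication is prepared before S phase, when the origin recognition complex (ORC), Cdc6 and Cdt1 place the ring of Mcm2 to Mcm7 on DNA as an inactive double hexamer. In S phase Cdc45 and the GINS complex join that ring to form the active helicase. DNA polymerase alpha with primase then lays primers, the clamp loader RFC sets the sliding clamp PCNA on them, and polymerases delta and epsilon extend them. Pluripotent stem cells divide fast and spend little time in G1, and in cycling cells many of these genes are under control of E2F transcription factors.

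The 3 libraries held between 5459332 and 5767550 estimated counts, of which the 38 genes held 0.584% in NT, 0.569% in IWR1 and 0.563% in Y27. Markers of EpiSCs were present, with Pou5f1 at 1463, 1318 and 1163 CPM and Sox2 at 172, 284 and 185 CPM in NT, IWR1 and Y27. Fgf5, an epiblast gene, stood at 20.7, 68.1 and 29.9 CPM. Of 10 fibroblast markers 7 were past the level filter, with a sum of 129, 81.8 and 67.6 CPM, most of it Col1a1 at 82.3, 54.7 and 31.0 CPM. Dcn and Postn had at most 3 counts in each library. A list of 5 RNAs, Malat1, Neat1, Meg3, H19 and Xist, summed to 354 CPM in NT, 788 in IWR1 and 1057 in Y27. All 5 were higher in IWR1 than in NT, while in Y27 4 were higher and 1 lower. This sum does not by itself measure RNA quality. Differences between libraries also followed transcript length and GC content across all genes. Values with that trend removed are given for some members and groups, and differences printed without one still hold the trend. The part of these shifts in the results was not tested.

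Because E2F control is a known feature of the family, the promoters were read for the E2F words TTTCCCGC, TTTCGCGC, TTTGCCGC and TTTGGCGC on both strands, from 250 bases before to 50 bases after the start. RefSeq promoters on GRCm38.p6 were matched for 30 of the 38 genes. Another build, mm8, is named in the submitters' processing notes, so the coordinates place the promoters and not the reads. Mcm4, Gins1, Gins2, Gins4, Gmnn, Prim2, Pole and Rfc2 were not among those matched. An E2F word stood in 13 of the 30 genes (43.3%, Wilson 95% interval 27.4 to 60.8), against 4.20% of the 13280 genes that were listed in these libraries and had a promoter in the table. The 13 genes were Orc1, Orc3, Cdc6, Cdt1, Mcm3, Mcm5, Mcm6, Mcm7, Gins3, Pola1, Pold1, Rfc3 and Lig1, so every role in the process was represented. Read on the strand of the gene alone, the share was 23.3%, against 2.17% of the listed genes. The CCAAT box (CCAAT) stood in 20 of 30 (66.7%, 48.8 to 80.8) against 42.6% of the listed genes. The CHR word (TTTGAA), which marks many genes of mitosis, stood in 4 of 30 (13.3%, 5.31 to 29.7) against 15.1%. A word match is a description of the letters and not a bound site. The 160 bases before the start are printed 5′ to 3′ on the gene's strand for 4 members, 2 helicase subunits and the 2 genes with the largest differences, with E2F words in capitals. The capital runs longer than 1 word in Mcm5 and Mcm6 are 2 overlapping matches on opposite strands. Mcm5 lies at chr8:75109349-75109508 (plus strand), Mcm6 at chr1:128359706-128359865 (minus), Pola1 at chrX:93632156-93632315 (minus) and Rfc1 at chr5:65335640-65335799 (minus).
Mcm5: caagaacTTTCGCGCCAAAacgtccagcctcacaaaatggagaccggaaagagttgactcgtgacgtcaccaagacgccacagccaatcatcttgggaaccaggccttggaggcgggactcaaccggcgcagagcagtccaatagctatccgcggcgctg
Mcm6: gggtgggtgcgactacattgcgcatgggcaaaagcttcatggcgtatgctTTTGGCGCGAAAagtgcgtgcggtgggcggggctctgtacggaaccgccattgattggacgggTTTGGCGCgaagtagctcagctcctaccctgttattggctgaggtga
Pola1: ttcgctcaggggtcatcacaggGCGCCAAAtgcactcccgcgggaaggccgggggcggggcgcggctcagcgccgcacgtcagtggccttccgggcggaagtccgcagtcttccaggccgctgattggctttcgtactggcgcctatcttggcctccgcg
Rfc1: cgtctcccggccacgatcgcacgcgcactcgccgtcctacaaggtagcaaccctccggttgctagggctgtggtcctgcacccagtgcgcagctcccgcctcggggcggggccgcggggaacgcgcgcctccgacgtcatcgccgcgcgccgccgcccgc
Pola1 and Rfc1, the members with the largest differences from NT, were unlike in this respect. Pola1 holds 1 E2F word in the window and Rfc1 holds none.

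The replication genes were high in every library. Per length, the median member stood at 43.7 FPKM in NT, 43.6 in IWR1 and 42.0 in Y27, against 6.15, 6.49 and 6.83 FPKM for all listed genes. In NT the members ran from the 39.7th percentile of listed genes (Pola1) to the 98.5th (Pcna), with a median at the 87.4th. Pcna, the sliding clamp, was the highest of the 38 at 290, 298 and 279 FPKM, followed in NT by Mcm7, Mcm3, Pola2 and Lig1 at 192, 164, 163 and 160 FPKM. At the low end stood Pola1 at 3.36 FPKM, Gins3 at 4.95, Orc4 at 5.92 and Orc3 at 7.46 FPKM in NT.

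**Figure D1:**
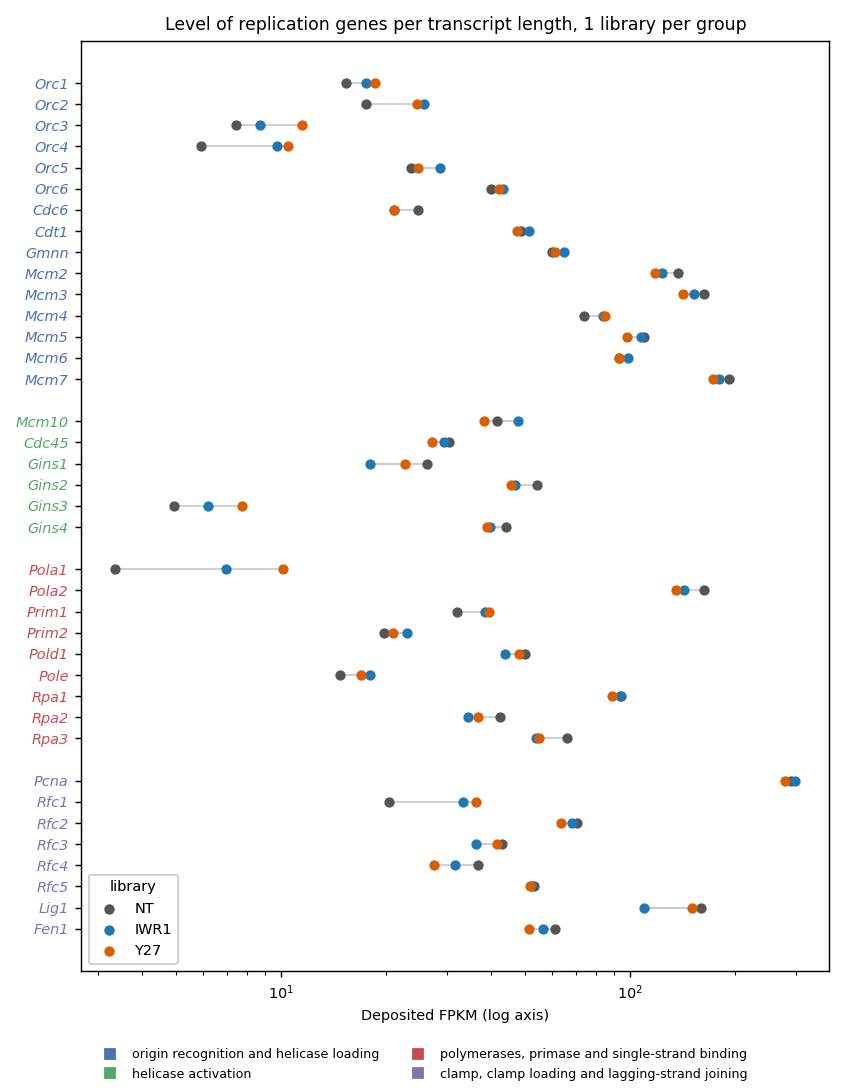
Level of each of the 38 replication genes in the NT, IWR1 and Y27 libraries, in FPKM on a log axis, ordered by role, with 1 point per library. The helicase ring genes lie together between 73.8 and 192 FPKM in NT, while the origin recognition genes lie between 5.92 and 40.1 FPKM.

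Set beside all genes, the family differed little between libraries. In IWR1 over NT, 18 members were higher and 20 lower (background: 49.7% of genes higher), and the median log2 difference was -0.05 against -0.00 for all genes compared. Only Pola1 and Rfc1 were at least 1.5-fold higher (background 10.8%) and no member was at least 1.5-fold lower (background 6.37%). The summed level of the 38 was 5959 CPM in NT and 5698 CPM in IWR1, a fold of 0.956 (0.942 to 0.971), against 0.982 for the sum of all genes compared. In brackets after each fold stand the bounds of an exact 95% interval, which covers counting error alone. This interval lay above 1 for 8 members and below 1 for 12, 21.1% and 31.6% of the 38 (background 20.3% and 19.1%). The members had a median of 486.5 counts in NT against 159 for all genes compared, and more counts give narrower intervals. In bulk RNA, fewer cells in S phase and less RNA per cell cannot be told apart.

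In Y27 over NT, 13 members were higher and 25 lower (background: 48.1% of genes higher), with a median log2 difference of -0.12 against -0.02 for all genes. Pola1, Rfc1 and Orc4 were at least 1.5-fold higher (background 14.9%), and none was at least 1.5-fold lower (background 5.53%). The summed level was 5509 CPM, a fold of 0.925 (0.910 to 0.939) to NT, against 0.959 for all genes. Intervals lay above 1 for 8 members and below 1 for 17, 21.1% and 44.7% of the 38 (background 21.9% and 22.9%).

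Between the treated libraries, Y27 over IWR1, 12 members were higher and 26 lower (background: 49.9% of genes higher), and the median was -0.08 against -0.00. No member was 1.5-fold apart in either direction (background 8.20% higher and 5.06% lower). The summed fold was 0.967 (0.952 to 0.982), an interval that holds the 0.976 of all genes. Intervals lay above 1 for 3 members, Orc3, Pola1 and Lig1, and below 1 for 11, 28.9% of the 38 (background 16.1% and 16.3%).

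**Figure D2:**
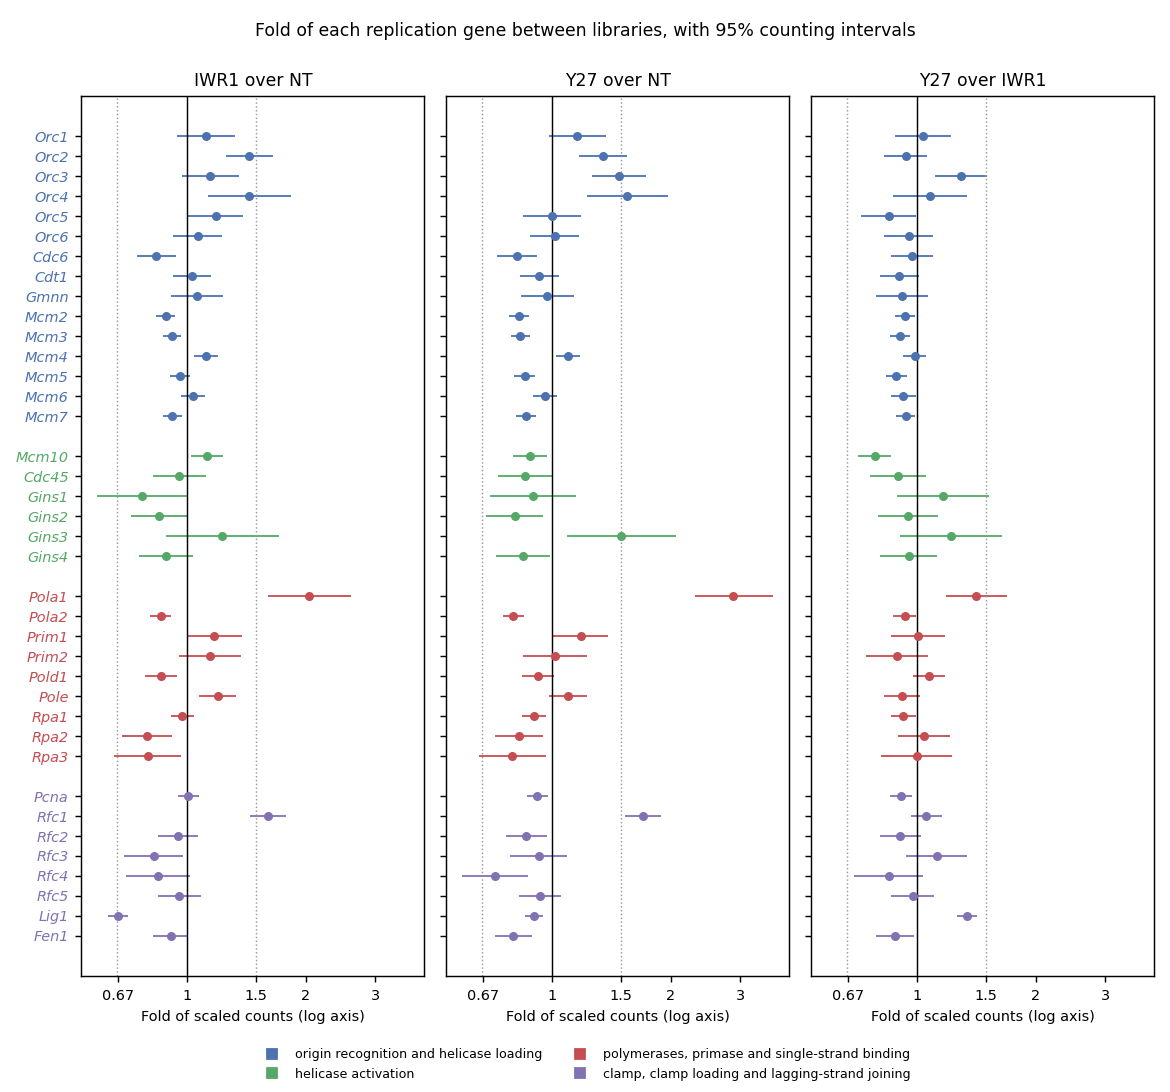
Fold of TMM-scaled counts of each replication gene in the 3 pairs of libraries, on a log axis, with bars for the exact 95% counting interval, dotted lines at 1.5-fold and colours for the 4 roles. Pola1 and Rfc1 stand to the right in both comparisons with NT, and Lig1 stands to the left in IWR1 over NT, at 1.49-fold lower.

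Origin licensing, the first role, held 15 members, of which 10 were higher in IWR1 and 7 in Y27 than in NT, with medians of 0.08 and -0.04. With no trend removed, the 6 ORC genes and most of the 6 helicase ring genes differed in direction within it. ORC binds origins and is the platform for loading. All 6 of its genes were higher in IWR1 and in Y27 than in NT, and their summed folds were 1.21 (1.14 to 1.30) and 1.22 (1.15 to 1.30). With the length and GC trend removed 3 of 6 were higher in IWR1 and 2 of 6 in Y27, and the median log2 differences went from 0.21 to 0.02 and from 0.32 to -0.08. With upper-quartile scaling 4 of 6 were higher in Y27, without Orc5 and Orc6.

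Orc2 and Orc4 had the larger differences in IWR1, and Orc2, Orc3 and Orc4 in Y27. Orc2 stood at 64.0 CPM in NT, 92.2 in IWR1 and 86.4 in Y27, a fold of 1.44 (1.26 to 1.65) in IWR1 and 1.35 (1.17 to 1.55) in Y27. Its log2 difference with the trend removed was 0.24 and 0.02. Orc4, an ATPase-fold subunit with a GC content of 37.6%, stood at 21.3, 30.6 and 32.9 CPM. Its folds were 1.44 (1.13 to 1.83) and 1.55 (1.23 to 1.97), and both turned in direction with the trend removed, to log2 differences of -0.09 and -0.30. Orc3 was at 48.7 and 55.7 CPM in NT and IWR1 and at 72.04 CPM in Y27, 1.48-fold above NT (1.27 to 1.73). With the trend removed its log2 differences turned to -0.23 in IWR1 and -0.08 in Y27. Orc1, the ATPase subunit whose protein leaves origins in S phase, stood at 47.9, 53.6 and 55.6 CPM, with intervals that held 1. Orc5 stood at 49.7, 58.8 and 49.8 CPM, 1.18-fold above NT in IWR1 (1.005 to 1.39) and level with it in Y27. Orc6 stood at 67.2, 71.6 and 68.3 CPM. Per length, Orc6 was the highest ORC gene in every library, at 40.1, 43.3 and 42.3 FPKM, 6.77, 4.44 and 4.03 times Orc4. The transcript length deposited for Orc4 differs between libraries, which makes its FPKM folds to NT, 1.65 and 1.77, larger than those of its counts.

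The loading factors were flat or slightly lower. Cdc6, the ATPase that joins ORC to load the ring, stood at 116, 96.8 and 94.3 CPM and was 1.20-fold lower (1.06 to 1.34) in IWR1 and 1.23-fold lower (1.09 to 1.38) in Y27. Cdt1, which brings the ring to ORC, stood at 112, 116 and 105 CPM. Geminin (Gmnn), the inhibitor that holds Cdt1 after S phase starts, stood at 59.8, 63.4 and 58.2 CPM. The intervals of both genes held 1 in each comparison with NT. Their FPKM ratio, Cdt1 over Gmnn, was 0.816, 0.792 and 0.779 in NT, IWR1 and Y27, so the transcripts of loader and inhibitor kept nearly 1 proportion in the 3 libraries.

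The helicase ring genes were high and close to each other in level. Per length its 6 genes lay between 73.8 FPKM (Mcm4) and 192 FPKM (Mcm7) in NT, and the ratio of highest to lowest was 2.61, 2.15 and 2.04 in NT, IWR1 and Y27. The same ratio in NT was 2.22 for the RPA genes, 3.47 for the RFC genes, 6.77 for the ORC genes and 10.98 for the GINS genes. The summed ring counts were 0.955 of NT in IWR1 (0.932 to 0.978) and 0.885 of NT in Y27 (0.863 to 0.907). In Y27, 5 of 6 were lower than in NT, or 4 of 6 with scaling by library total, under which Mcm6 was not lower. With the length and GC trend removed, all 6 were lower in Y27, and the median log2 difference went from -0.22 to -0.11. In IWR1 3 of 6 were then higher, and the median went from -0.09 to -0.00.

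Mcm2 stood at 477, 422 and 394 CPM and was 1.13-fold lower (1.07 to 1.20) in IWR1 and 1.21-fold lower (1.15 to 1.28) in Y27. Mcm3 stood at 485, 444 and 403 CPM and was 1.20-fold lower (1.14 to 1.27) in Y27. Mcm7 stood at 472, 433 and 406 CPM and was 1.16-fold lower (1.10 to 1.23) in Y27. In each of these 3 genes NT was the highest library and Y27 the lowest. Mcm5 followed them in Y27, at 389, 373 and 331 CPM and 1.17-fold lower (1.10 to 1.249). Mcm6 was level at 277, 288 and 266 CPM. Mcm4 went the other way at 272, 304 and 300 CPM, 1.12-fold higher in IWR1 (1.04 to 1.20) and 1.10-fold higher in Y27 (1.03 to 1.18), but with the trend removed its log2 difference was -0.01 and -0.10. The IWR1 difference of Mcm7, 1.09-fold lower (1.03 to 1.15), turned to 0.01 likewise.

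Helicase activation, the second role, held 6 members with medians of -0.12 in IWR1 and -0.20 in Y27 over NT, and 2 and 1 members higher. With the length and GC trend removed the medians were -0.03 and -0.07. Mcm10, which helps the loaded helicase start to unwind, lay on opposite sides of NT in the 2 treated libraries. It stood at 150 CPM in NT, 169 in IWR1 and 132 in Y27, 1.12-fold higher than NT in IWR1 (1.02 to 1.24) and 1.14-fold lower in Y27 (1.03 to 1.26). Between the treated libraries it was 1.28-fold lower (1.16 to 1.41) in Y27, so IWR1 was its highest library and Y27 its lowest. Cdt1, Gmnn, Mcm6 and Pcna had the same order, with smaller differences. Cdc45, the partner of the ring in the active helicase, was at 60.5, 57.9 and 51.8 CPM, and the intervals of both folds to NT reached 1.

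The 4 GINS genes, which complete the active helicase, were unequal in level. Gins2 at 54.3, 47.0 and 45.7 FPKM and Gins4 at 44.1, 39.9 and 38.9 FPKM were far above Gins3 at 4.95, 6.20 and 7.73 FPKM, although their proteins form a complex with 1 copy of each. Gins2 was 1.24-fold lower in Y27 than in NT (1.05 to 1.47), at 57.9 CPM in NT, 49.1 in IWR1 and 46.6 in Y27. Gins1 stood at 24.6, 18.9 and 22.04 CPM, lowest in IWR1, where it was 1.30-fold lower than NT (1.00 to 1.69). Gins3 was the one GINS gene higher in both treated libraries, at 12.2, 15.01 and 18.3 CPM, with folds of 1.23 (0.883 to 1.72) and 1.497 (1.09 to 2.06). It also had the fewest counts of the members in NT, 69, and its log2 difference in Y27, 0.55, lay just under the 1.5-fold line. The ratio of Gins2 to Gins3 was 10.98, 7.59 and 5.91 in NT, IWR1 and Y27.

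The polymerase group held 9 members with medians of -0.04 and -0.12, or -0.04 and 0.01 with the trend removed, and it held the gene with the largest difference of the family. Pola1 (Entrez Gene 18968, on the X chromosome), the catalytic subunit of DNA polymerase alpha that extends each RNA primer with a first stretch of DNA, had 105 counts in NT, 212 in IWR1 and 299 in Y27. This was 18.6, 37.9 and 53.6 CPM, so NT was lowest and Y27 highest. The folds were 2.04 (1.61 to 2.60) for IWR1 over NT, 2.88 (2.30 to 3.64) for Y27 over NT and 1.42 (1.18 to 1.70) for Y27 over IWR1. Its transcript is long, at 5350 bases, with a GC content of 41.5%. The 667 compared genes with a GC content of 40 to 42% had a median log2 difference of 0.42 in IWR1 and 0.61 in Y27, against 0.99 and 1.48 for Pola1. With the length and GC trend removed Pola1 was at 0.52 and 0.77, the highest value of the 38 in each comparison.

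The other 3 genes of the polymerase alpha and primase complex differed less from NT, and only Pola2 was lower than NT. Pola2, the accessory subunit, stood at 401, 344 and 320 CPM and was 1.17-fold lower in IWR1 (1.10 to 1.24) and 1.253-fold lower in Y27 (1.18 to 1.33). Prim1, the catalytic primase subunit, stood at 49.9, 58.6 and 59.0 CPM with folds of 1.17 (0.999 to 1.38) and 1.18 (1.00 to 1.39). Its libraries had the same order as those of Pola1, with smaller differences. Prim2, the large primase subunit, stood at 40.2, 45.9 and 40.9 CPM. The catalytic and accessory subunits of polymerase alpha thus differed between libraries in opposite directions, and the FPKM ratio of Pola2 to Pola1 was 48.6 in NT, 20.4 in IWR1 and 13.4 in Y27. These ratios are of transcripts and set no amount of protein.

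The catalytic subunits of the main replicative polymerases were near level. Pold1, of polymerase delta, which copies the lagging strand, stood at 176, 152 and 162 CPM and was 1.16-fold lower in IWR1 (1.06 to 1.27). Pole, of polymerase epsilon, which copies the leading strand, stood at 110, 131 and 121 CPM and was 1.20-fold higher in IWR1 (1.07 to 1.33). In Y27 the intervals of both held 1. Per length Pold1 was the higher of this pair in each library, at 49.96, 43.8 and 48.1 FPKM against 14.8, 18.1 and 17.0 FPKM for Pole.

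Replication protein A coats the single-stranded DNA that the helicase exposes, and its 3 genes were lower in both treated libraries, with summed folds of 0.922 (0.869 to 0.978) in IWR1 and 0.875 (0.825 to 0.929) in Y27. Rpa2 stood at 77.3, 61.3 and 63.8 CPM and was 1.26-fold lower in IWR1 (1.09 to 1.46) and 1.21-fold lower in Y27 (1.05 to 1.40). Rpa3, the smallest subunit, stood at 42.6, 33.9 and 33.9 CPM and was 1.26-fold lower in each. Rpa1, the largest subunit, was the steadiest at 297, 289 and 268 CPM. Its fold in IWR1, 0.974 (0.909 to 1.043), was within counting error of 1. Rpa3 has a short transcript of 655 bases with a GC content of 40.4%, and with the trend removed its difference was larger, at -0.47 and -0.50 on the log2 scale. The 3 genes also stayed lower than NT with the trend removed and under each scaling.

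Clamp loading and strand joining held 8 members, with medians of -0.11 and -0.14, and 2 and 1 members higher than in NT. With the length and GC trend removed the medians were -0.03 and -0.04. Pcna itself was level in IWR1, at 369 CPM in NT, 372 in IWR1 and 339 in Y27, and 1.09-fold lower in Y27 (1.02 to 1.16). Its Y27 difference turned to 0.06 with the length trend alone removed. The clamp loader split into its large subunit and its 4 small ones. Rfc1 (Entrez Gene 19687), the large subunit that opens the clamp with the others, had 562 counts in NT, 894 in IWR1 and 942 in Y27, which was 99.4, 160 and 169 CPM. Both treated libraries were above NT and close to each other, at folds of 1.61 (1.44 to 1.79) and 1.70 (1.53 to 1.89) to NT. With the length and GC trend removed the log2 differences went from 0.68 to 0.51 and from 0.76 to 0.51, below the 1.5-fold line in both.

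The 4 small subunits, Rfc2 to Rfc5, were all lower than NT in both treated libraries, with summed folds of 0.914 (0.853 to 0.980) and 0.874 (0.814 to 0.937). With the length trend alone removed, 2 of the 4 were lower in each. With the length and GC trend removed, 3 were lower in IWR1 and 4 in Y27, where Rfc3 and Rfc5 were only at -0.006 and -0.002. With no trend removed, the intervals of single genes held 1 for 3 of the 4 in IWR1 and for 2 in Y27. Rfc4 had the largest difference of them, at 45.5, 38.4 and 32.6 CPM and 1.39-fold lower in Y27 (1.15 to 1.70). Rfc2 stood at 109, 103 and 93.7 CPM, and Rfc5 at 94.8, 90.8 and 88.5 CPM. Rfc3 was lowest in IWR1, at 52.9, 43.6 and 48.9 CPM. The FPKM ratio of Rfc2 to Rfc1 was 3.47 in NT, 2.05 in IWR1 and 1.76 in Y27, so the loader's subunit transcripts were closer in level in the treated libraries. Rfc1 and Pola1, the members at least 1.5-fold higher in IWR1, both have transcripts longer than the members' median of 2397 bases.

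Lig1 (Entrez Gene 16881), the ligase that seals the joined fragments of the lagging strand, had the largest difference downward, and the most counts of any member in NT and Y27. It had 2902 counts in NT, 1927 in IWR1 and 2578 in Y27, which was 513, 344 and 462 CPM. IWR1 was thus the low library, 1.49-fold below NT (1.41 to 1.58), while Y27 was 1.11-fold below NT (1.05 to 1.17) and 1.34-fold above IWR1 (1.26 to 1.42). With the trend removed the IWR1 log2 difference was -0.46 in place of -0.58. Fen1, the nuclease that trims the flap before ligation, had another order, at 138, 126 and 110 CPM, lowest in Y27, where it was 1.252-fold below NT (1.12 to 1.39). The FPKM ratio of Lig1 to Fen1 was 2.62, 1.94 and 2.93 in NT, IWR1 and Y27.

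Within the family, the differences from NT followed transcript length and GC content. Over the 38 members the Spearman correlation of the IWR1 difference was 0.47 with length and -0.51 with GC content, and that of the Y27 difference 0.39 and -0.55. Over 12825 genes the same values were 0.26 and -0.43 for IWR1 and 0.34 and -0.51 for Y27. These are descriptions across genes of the same 3 libraries, and genes are not independent replicates. The members' median length was 2397 bases against 2894 for all genes, and their median GC content 49.0% against 50.5%. With both trends removed, no member was 1.5-fold from NT in IWR1 and only Pola1 was in Y27. The same count over the 12825 genes was 1582 in IWR1 and 1605 in Y27. The members' medians were then -0.01 and -0.07.

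**Figure D3:**
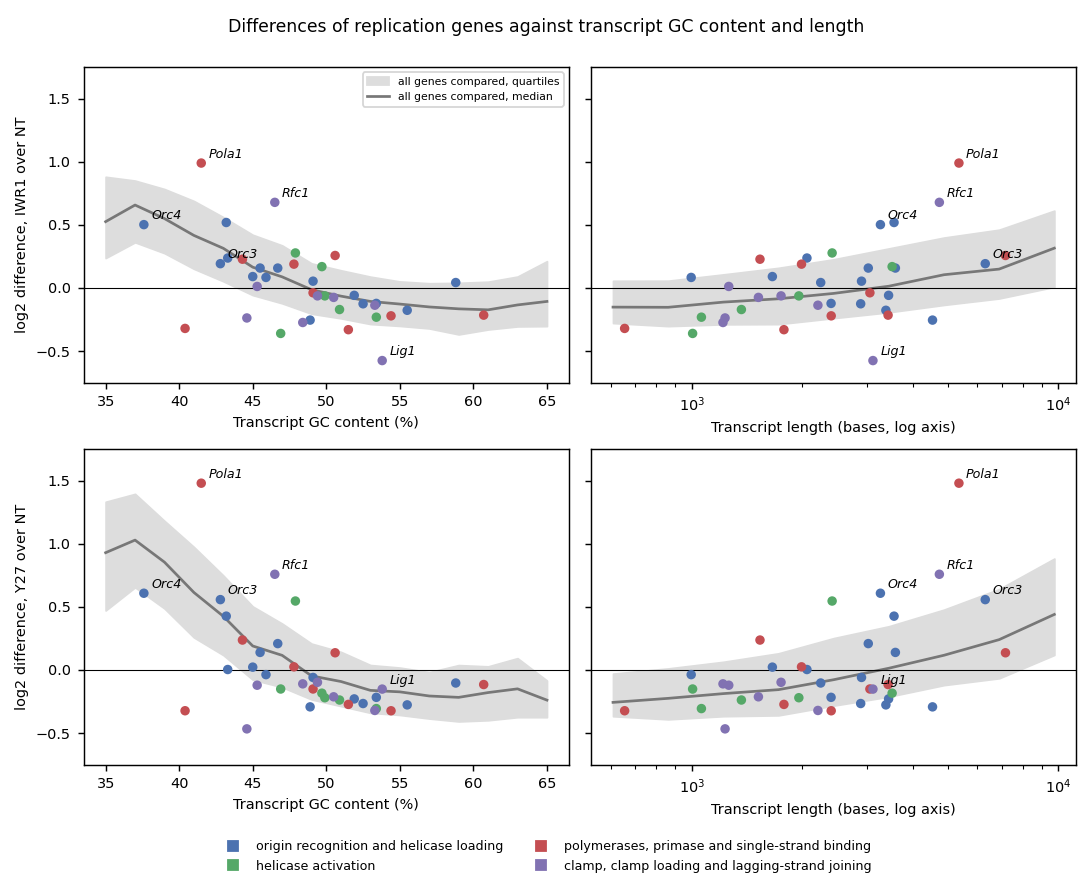
Log2 difference of each replication gene from NT against the GC content (left) and the length on a log axis (right) of its transcript, for IWR1 (top) and Y27 (bottom), with a line and band for the median and quartiles of all genes compared in steps of either measure. Pola1 lies above the band of genes of like GC content in both panels, at 0.99 and 1.48, while Orc4, at a GC content of 37.6%, lies within it or below it.

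Replication genes outside the 38 were taken from 7 further lists, with 70 genes in all. In IWR1 48 of the 70 were higher than in NT (68.6%, background 49.7%), 10 of them at least 1.5-fold (background 10.8%), 1 was at least 1.5-fold lower, and the median was 0.13. In Y27 36 were higher (51.4%, background 48.1%), 11 of them at least 1.5-fold (background 14.9%), 1 was at least 1.5-fold lower, and the median was 0.04. With the length and GC trend removed 4 of the 70 were past 1.5-fold in each comparison (background 1582 and 1605 of 12825 genes). Of the 7 lists, fork protection and its checkpoint had the highest medians, 0.40 and 0.29 over 13 genes. With the trend removed they were 0.17 and 0.19, and in IWR1 below those of primer removal and topology (0.21) and of the E2F list (0.21). In it, 4 genes were at least 1.5-fold higher in each treated library. Atad5, which unloads PCNA, stood at 25.8, 53.95 and 71.9 CPM, with log2 differences of 1.03 and 1.44, or 0.51 and 0.65 with the trend removed. Clspn, the adaptor that links stalled forks to Chek1, stood at 51.0, 79.3 and 84.2 CPM, with 0.63 and 0.71, or 0.56 and 0.60. The checkpoint kinase Atr was at 0.92 and 1.20, or 0.30 and 0.25 with the trend removed.

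The list of primer removal and topology had medians of 0.29 and 0.25 over 7 genes, or 0.21 and 0.19 with the trend removed. Top2a, the topoisomerase that separates the finished strands, stood at 712 CPM in NT, 1047 in IWR1 and 1177 in Y27, with log2 differences of 0.56 and 0.72, or 0.21 and 0.20 with the trend removed. Top2b was at 87.2, 140 and 203 CPM, with 0.67 and 1.21, or 0.23 and 0.55. Nasp, a histone chaperone, stood at 318, 548 and 632 CPM, with log2 differences of 0.78 and 0.99, or 0.62 and 0.77 with the trend removed. With no trend removed it was the one gene of 8 in chromatin assembly past 1.5-fold in either treated library. With the trend removed Asf1a was also past it in Y27, at -0.66. In the firing list, with medians of 0.26 and 0.18 over 13 genes, Ccne2, a cyclin that drives entry into S phase, stood at 14.5, 24.5 and 33.0 CPM. Its log2 differences of 0.72 and 1.13 became 0.01 and 0.00 with the trend removed. The nucleotide supply list was near level with no trend removed, with medians of -0.04 and -0.10 over 10 genes and none past 1.5-fold. With the trend removed its medians were -0.08 and -0.17, and Dck, at -0.63, was past 1.5-fold in IWR1. Of the 6 further polymerase subunits, with medians of -0.07 and -0.21, only Pold4 was past 1.5-fold, lower at 5.48, 2.14 and 3.05 CPM. Pold4 had only 31, 12 and 17 counts, and its interval in Y27 over NT, 0.288 to 1.035, held 1. Its log2 differences of -1.04 and -0.68 became -0.82 and -0.39 with the trend removed. In the list of E2F factors and pocket proteins, with medians of 0.16 and 0.13 over 13 genes, or 0.21 and 0.13 with the trend removed, Rb1, the pocket protein that holds E2F factors in check, stood at 12.0, 20.2 and 28.0 CPM, with 0.70 and 1.15, or 0.25 and 0.47 with the trend removed. E2f8 was highest in IWR1, at 18.6, 31.1 and 20.4 CPM.

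**Figure D4:**
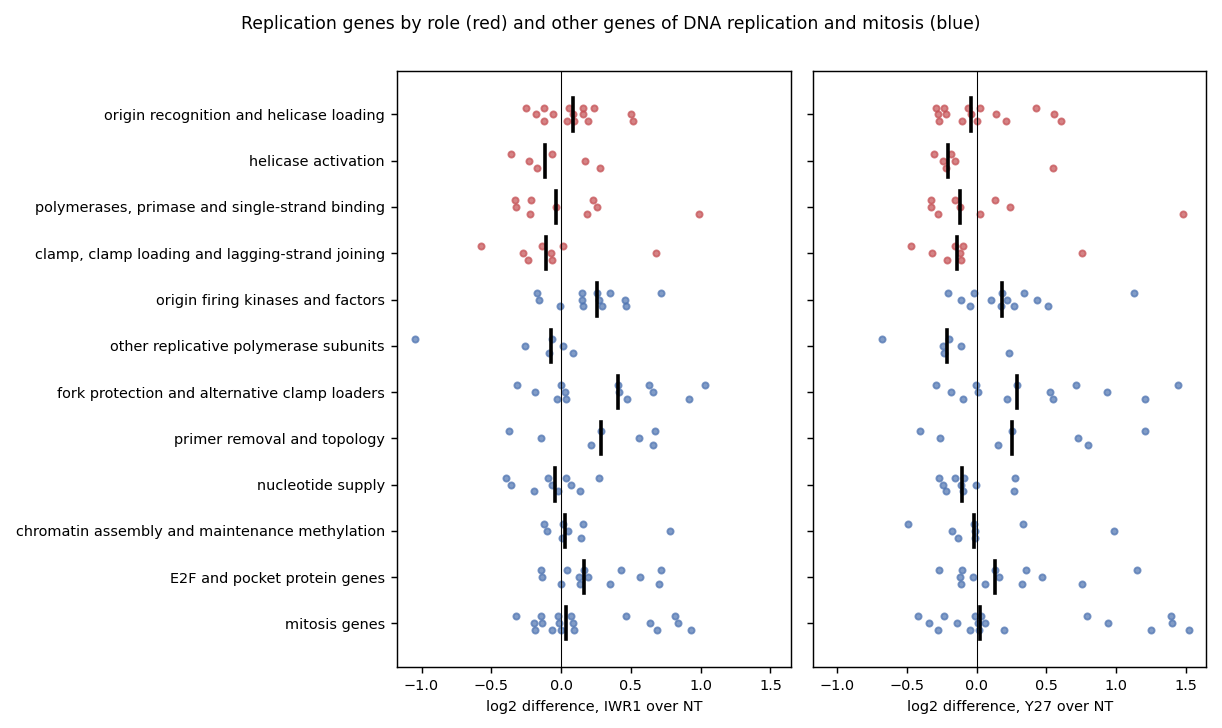
Log2 differences from NT in IWR1 and in Y27 for the genes of the 4 member roles, the 7 further replication lists and a mitosis list, with 1 point per gene, red for members and blue for the others, and a bar at each list's median. The members' roles have medians between -0.20 and 0.08, and the fork protection list has the highest medians with no trend removed, 0.40 in IWR1 and 0.29 in Y27.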

How the data were processed

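RNA-seq tables of 3 libraries, 1 per group, were used, and groups came from the labels. Per the file headers, the columns hold transcript length, expected count and FPKM by Entrez gene. The deposited expected counts are read estimates without normalization, and are not whole for 5 members (Orc2, Orc4, Mcm5, Mcm10 and Pola2). The deposited FPKM are those counts set against the deposited transcript length and the library sum. FPKM recomputed from count, length and library sum came within 2% for 36, 37 and 36 members in NT, IWR1 and Y27. The submitters' processing notes name Bowtie 0.12.2 and mm8. The counting tool, and if it used strand, are not given in the sources used here. Of the identifiers 99.7% matched a symbol. GC content came from GENCODE transcripts on GRCm38 through RefSeq accessions, for 99.0% of genes compared and all 38 members.

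Counts were scaled with TMM factors (0.980, 0.998 and 1.02; edgeR 4.0.16, R 4.3.3) and compared where the mean over the libraries reached 1 CPM. Log2 differences used a pseudocount of 1 CPM, so those of low genes are understated. Folds without pseudocount have exact conditional binomial 95% intervals on counts rounded to whole numbers, which cover counting error only. The trend removed is a cubic surface on log2 length and GC content. The fold interval was tested on simulated counts that held counting error alone, and the trend removal on a simulated trend. The other steps were not tested in this way. The members, role groups and lists were chosen with earlier results of these data known. Any member could be named, and of the other lists the genes at least 1.5-fold apart in a pair and the 3 with the largest difference in a pair. Computations ran in Python 3.11.15 (scipy 1.17.1, numpy 2.4.6, matplotlib 3.10.9, pandas 2.3.3), and DESeq2 1.42.0 gave alternative size factors.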

Additional observations from a re-analysis of the deposited data

How the results depend on the processing

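No paired analysis was possible because each group had 1 library, and for the same reason no library could be left out. The numbers of members higher stayed within 1.5 times under every setting run. The medians of the 38 moved by no more than the median half-width of the members' own counting intervals. That is a loose measure, as it is the error of single genes and not of a median. With the length and GC trend removed, the medians of -0.05, -0.12 and -0.08 were -0.01, -0.07 and -0.05. The count of members at least 1.5-fold from NT in IWR1, 2, was 0 with the length and GC trend removed, 7 at a looser threshold, a ratio of 5 to 4, and 0 at 2-fold. In Y27 over NT the count, 3, was 5 with scaling by library total, 5 on the deposited FPKM, 1 with the length and GC trend removed, 9 at the looser threshold and 1 at 2-fold. In Y27 over IWR1 the count, 0, was 4 at the looser threshold. The summed fold of the 38 was 0.974 by library total and 0.928 by upper quartile for IWR1 over NT, 0.964 and 0.886 for Y27 over NT, and 0.990 by library total for Y27 over IWR1. No scaling moved the median of all genes by over 0.1 on the log2 scale.

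With the length and GC trend removed, the sign changed for 8 of 38 members in IWR1 over NT and 7 of 38 in Y27 over NT. Among those whose interval excluded 1, IWR1 over NT turned in direction for Orc4 (-0.086), Mcm4 (-0.0134) and Mcm7 (0.0065), and Y27 over NT for Orc3 (-0.084), Orc4 (-0.304) and Mcm4 (-0.105). With the length trend alone, of such members Y27 over NT turned for Pcna (0.0617). Of 1239 values of single members under an alternative, 1205 stayed within the counting interval of the main value, and 46 had another sign, most of them of members whose interval held 1. The cause was not tested. With 1 library per group, differences between cultures and preparation days cannot be told apart from the treatments. Counts of 69 to 2902 per member set the precision, and the interval of the fold held 1 for 18 members in IWR1 and 13 in Y27.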

Other observations

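A list of 18 mitosis genes was read beside the replication genes, since both groups serve the same cycle. Its medians were level, at 0.03 in IWR1 and 0.03 in Y27 over NT. In IWR1 9 genes were higher and 9 lower, and in Y27 11 and 7 (background 49.7% and 48.1% higher). Intervals lay below 1 for 3 and 4 genes, 16.7% and 22.2% (background 19.1% and 22.9%). They lay above 1 for 6 and 7, 33.3% and 38.9% (background 20.3% and 21.9%). The spread of the list was wider than that of the 38. At least 1.5-fold higher were 5 genes in IWR1 (background 10.8%) and 6 in Y27 (background 14.9%), and none was at least 1.5-fold lower. Once the trend on length and GC content was taken out, 1 and 3 of the 18 were past 1.5-fold (background 1582 and 1605 of 12825 genes). Mki67, a coat protein of mitotic chromosomes used to mark cycling cells, stood at 158 CPM in NT, 303 in IWR1 and 419 in Y27, with log2 differences of 0.93 and 1.40, or 0.63 and 0.92 with the trend removed. Kif11, the motor that pushes spindle poles apart, stood at 109, 193 and 210.3 CPM in the 3 libraries in that order, with log2 differences of 0.81 and 0.94, or 0.41 and 0.34. Cenpf, a kinetochore protein, stood at 108, 194 and 311 CPM, with 0.84 and 1.52, or 0.31 and 0.70. These transcripts are long, at 10100 bases for Mki67, 4850 for Kif11 and 11130 for Cenpf, against a median of 2397 for the replication genes. Mki67 and Pcna, which are both read as marks of proliferation, thus did not go together. With no trend removed, Pcna was level in IWR1 and slightly lower in Y27, at 369, 372 and 339 CPM, while Mki67 was higher in both.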
